A study of Homo sapiens with 6 samples.

Results

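The laminins, elastic fibre components and matrix glycoproteins are secreted proteins that build the basement membrane and the elastic tissue around cells. Here 41 genes of this kind were followed, taken by gene symbol from a table of 60835 loci, and each was found in exactly 1 locus with an annotated transcript. They were measured in ARPE-19 cells, an established human line of retinal pigment epithelium, with the genotype given as WT. One group of 3 libraries came from cells kept 72 h in normal glucose and the other group of 3 from cells kept 72 h in high glucose. The labels give neither concentration and name no osmotic control. Nothing in them ties a library to its own culture, so p-values here reflect the scatter among these libraries, possibly technical.

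In the eye, the retinal pigment epithelium rests on its own basement membrane, which forms the inner layer of Bruch's membrane, while an elastic layer lies in the middle of that membrane. A laminin molecule is a trimer of an alpha, a beta and a gamma chain, and nidogen, perlecan and agrin tie laminin networks to type IV collagen and to the cell. Elastic fibres form on microfibrils of fibrillin, onto which fibulins bring elastin and lysyl oxidases, the enzymes that crosslink it. Matricellular proteins such as SPARC and the thrombospondins sit in the matrix without being structural parts of it and adjust how cells attach to it.

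Of the 41 genes, 8 were higher and 2 were lower in high glucose, and 30 tested genes did not pass the threshold, an adjusted p under 0.05 in edgeR's quasi-likelihood test. SPARC, LAMB3, FBN1, THBS1, LOXL4, HSPG2, LAMA4 and EFEMP2 rose, and LAMB2 and FBN2 fell. In CPM, counts scaled to each library's size after TMM adjustment, SPARC was 3.79-fold higher (log2 change 1.92, SE 0.345) and FBN2 stood at 0.328 of its level in normal glucose (log2 change -1.61, SE 0.274). The 10 called genes were 25.0% of the 40 tested, against 19.6% of all 25025 tested loci and 25.5% of the 13786 loci with a protein-coding transcript. The share is thus close to that of protein-coding loci, and what follows describes which genes changed, not an excess of changed genes. By direction, 9.75% of all tested loci were called higher and 9.86% lower, or 13.1% and 12.4% of the protein-coding ones. The median log2 change was 0.17 over the tested genes of the group and 0.00 (-0.0042) over all tested loci.

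Promoter sequence is shown for the pair of fibrillins, which moved in opposite directions, for SPARC, with the greatest rise of the group, and for LAMB3, with the smallest adjusted p. Each is the 250 bases before the transcription start given by RefSeq (GRCh38.p14), written 5′ to 3′ on the gene's own strand, which is the minus strand for all 4. Capitals mark matches to a motif, searched on both strands. The GC box was searched as GGGCGG and the E-box as CACGTG, the TEAD site as GGAATG and the AP-1 site as TGANTCA. The promoter box for NF-Y was searched as CCAAT, and the TATA box with the letters TATAAA. None of the matches marked here overlap.
SPARC promoter, chr5:151686916-151687165: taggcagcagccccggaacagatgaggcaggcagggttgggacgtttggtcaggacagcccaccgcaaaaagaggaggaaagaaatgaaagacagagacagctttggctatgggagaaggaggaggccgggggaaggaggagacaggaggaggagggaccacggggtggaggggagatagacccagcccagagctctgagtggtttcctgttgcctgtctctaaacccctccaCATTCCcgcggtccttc
FBN1 promoter, chr15:48644971-48645220: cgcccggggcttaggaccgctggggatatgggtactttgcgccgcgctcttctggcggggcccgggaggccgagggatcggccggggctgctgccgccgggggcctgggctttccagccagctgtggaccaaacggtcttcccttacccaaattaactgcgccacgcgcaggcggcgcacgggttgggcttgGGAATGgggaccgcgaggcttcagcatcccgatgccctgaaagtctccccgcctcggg
FBN2 promoter, chr5:128538246-128538495: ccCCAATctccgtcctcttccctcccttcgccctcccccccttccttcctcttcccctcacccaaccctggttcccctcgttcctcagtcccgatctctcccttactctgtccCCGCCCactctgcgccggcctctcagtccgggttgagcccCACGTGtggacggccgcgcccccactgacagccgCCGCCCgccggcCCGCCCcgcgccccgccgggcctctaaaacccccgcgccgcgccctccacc
LAMB3 promoter, chr1:209652426-209652675: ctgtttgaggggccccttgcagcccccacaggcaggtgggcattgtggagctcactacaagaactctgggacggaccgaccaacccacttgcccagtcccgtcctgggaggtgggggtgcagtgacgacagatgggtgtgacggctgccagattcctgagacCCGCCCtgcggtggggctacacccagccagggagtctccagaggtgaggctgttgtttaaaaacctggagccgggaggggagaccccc

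The windows of the fibrillins shared none of the marked motifs. FBN2 held 3 GC boxes, 1 NF-Y box and 1 E-box, while FBN1 and SPARC each held 1 TEAD site and LAMB3 held 1 GC box. Of 27305 promoters of this length in RefSeq, 42.3% held a GC box, 33.0% an NF-Y box, 6.49% an E-box, 11.9% a TEAD site, 11.1% a TATA box and 6.6% an AP-1 site. Promoters were matched for 30 of the 41 genes. Among those, 21 held a GC box, 7 an NF-Y box, 1 an E-box, 2 a TATA box, 3 an AP-1 site and 6 a TEAD site (FBN1, LAMA2, LOXL3, SPARC, THBS1 and THBS2). Those 6 include genes that rose and genes that did not pass the threshold. The median GC content was 67.4% in the promoters of the group and 58% in all promoters. These matches describe letters in a window and say nothing of binding.

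The libraries held 81616741 to 87748820 counts, and the 41 genes took 0.763% to 0.915% of them in normal and 0.952% to 1.03% in high glucose. Without normal glucose 3 the share of loci called was 28.7% in place of 19.6%, so omissions that change the call of a gene described here are given beside it. Spread within a group was wider in normal glucose for 36 of the 40 tested genes, with a median SD of 0.380 against 0.0892 in high glucose on the log2 CPM scale. Over all tested loci these medians were 0.369 and 0.227, and 68.7% of loci were wider in normal glucose. The list of markers of retinal pigment epithelium held 17 genes, some of which, such as KRT8, KRT18 and SLC16A3, are not particular to it. Among them RPE65, the visual cycle isomerase, and DCT, a pigment enzyme, stayed under 12 counts in every library. Of the 13 tested, 4 rose, 2 fell and 7 did not pass the threshold, with a median log2 change of -0.05. The keratins KRT8 and KRT18 rose by 1.66 and 1.88, the cadherin CDH3 by 3.08 and the lactate carrier SLC16A3, in a locus with MIR6787, by 1.499 (edgeR adjusted p = 0.0152, 0.00636, 0.0138 and 0.0415). The loci of KRT8 and KRT18 overlap on chromosome 12, and without strand their reads cannot be told apart there. The chloride channel BEST1 fell by 2.20 and the phagocytosis receptor MERTK by 1.23 (edgeR adjusted p = 0.0113 and 0.0191). KRT18 alone was called in all 6 omissions. The other 5 had adjusted p of 0.0538 to 0.114 with high glucose 1 or 2 left out and, except BEST1, of 0.0504 to 0.112 with high glucose 3 left out. For KRT8 and SLC16A3, omitting normal glucose 1 gave 0.0531 and 0.127, and for SLC16A3 omitting normal glucose 2 gave 0.0695. The summed level of 8 smooth muscle and pericyte markers was 114.5 to 156 CPM in normal and 235 to 251 CPM in high glucose. TAGLN and ACTA2 held most of it. TAGLN and CSPG4 rose and 6 did not pass the threshold, MYH11, CNN1 and KCNJ8 with negative and ACTA2, DES and RGS5 with positive changes. Without normal glucose 1, the edgeR adjusted p of TAGLN was 0.0523. It was 0.0581, 0.0568 or 0.0584 without high glucose 1, 2 or 3. For CSPG4 it was 0.0508 without normal glucose 2, and 0.0674 or 0.0680 without high glucose 1 or 2. The sum of 9 endothelial markers was 11.7 to 19.4 and 3.96 to 5.02 CPM, most of it KDR, at means of 12.2 and 2.30 CPM. Of the 5 tested, KDR fell and 4 did not pass, PECAM1, VWF and ESAM with negative changes and TEK with a positive one. ESAM passed without normal glucose 3 (log2 change -2.09, edgeR adjusted p = 0.0322). TEK, at 0 to 24 counts, passed without normal glucose 1 (log2 change 7.22, edgeR adjusted p = 0.0466). Of 8 immune markers, PTPRC, CD3E, MS4A1 and AIF1 were under 12 counts throughout, as were the endothelial markers CDH5 and ERG. The immune markers CSF1R, CD14 and LYZ had 103 to 203, 8 to 77 and 0 to 19 counts, and CD68 shares its locus with the abundant EIF4A1, so its value cannot be read. The part of these shifts in the results was not tested, and in bulk RNA a smaller number of cells of a type and less RNA per cell cannot be told apart.

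**Figure D1:**
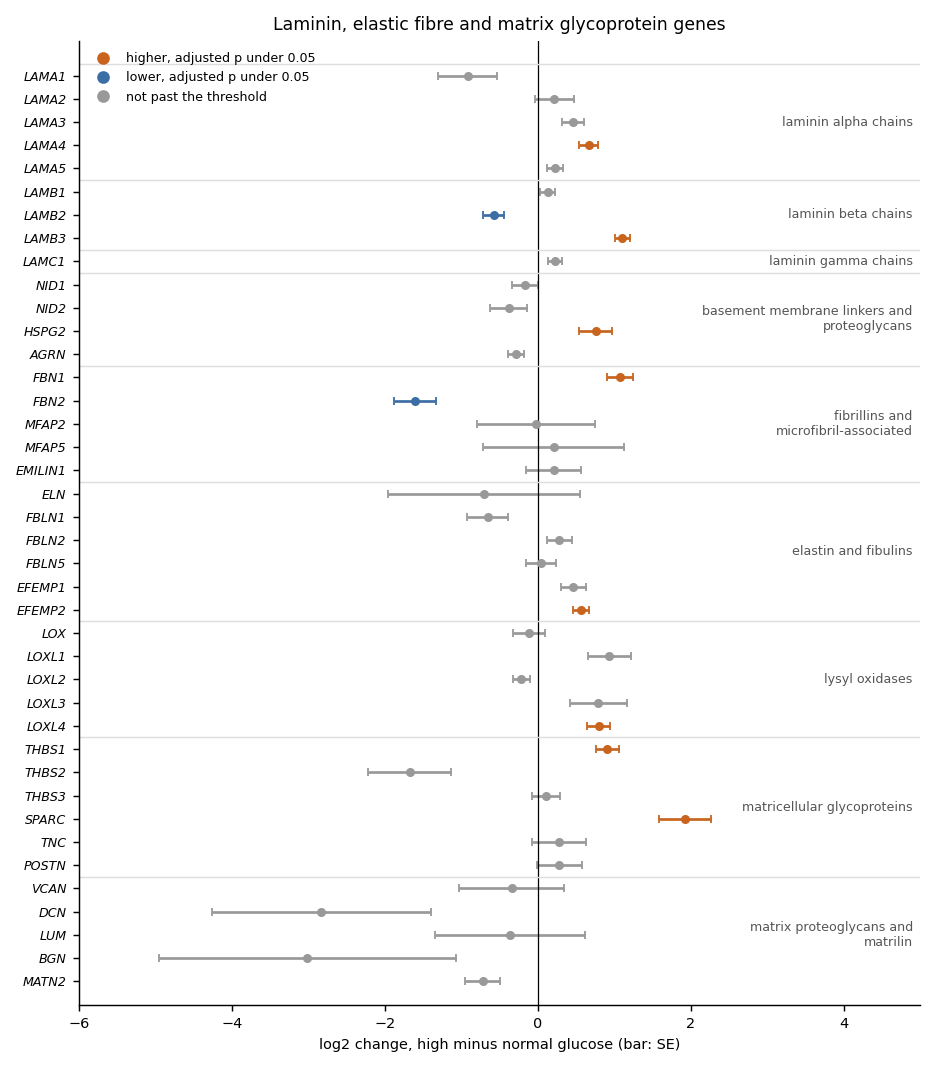
Log2 change in high minus normal glucose (x axis) for the 40 tested genes, grouped by role (y axis), with bars for the SE of the edgeR estimate. The 8 genes that rose and the 2 that fell are coloured, and the widest bars belong to genes of very low level such as BGN and DCN.

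Of the laminin chains, 2 rose and 1 fell. LAMB3, the beta chain of laminin-332, the laminin of hemidesmosomes, and LAMA4, an alpha chain typical of vessel basement membranes, were the ones that rose. LAMB2, the beta chain of the retinal and kidney laminins, fell. The other 6 tested chains did not pass the threshold.

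LAMB3 (chr1:209614870-209652425, minus strand, in a locus that also holds MIR4260) was at 43.7, 41.4 and 44.8 CPM in normal glucose 1, 2 and 3 and at 95.1, 91.9 and 92.1 CPM in high glucose 1, 2 and 3. The groups were far apart and each was tight, with 43.3 ± 1.75 against 93.1 ± 1.80 CPM (SD, n = 3). The log2 change was 1.10 (SE 0.0948; edgeR adjusted p = 0.00213), and it stayed between 1.07 and 1.13 with adjusted p of at most 0.0219 when any 1 library was left out. LAMA3, the alpha chain of the same trimer, was at 108, 93.9 and 77.5 CPM in normal and at 119, 131 and 133 CPM in high glucose. All high glucose libraries lay above all normal glucose ones, but the log2 change of 0.46 (SE 0.139) missed the threshold (edgeR adjusted p = 0.0597). It passed without normal glucose 1 (0.58, adjusted p = 0.0489) and without normal glucose 3 (0.34, adjusted p = 0.0445).

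LAMA4 (chr6:112107931-112254722, minus strand) was the alpha chain with the highest level per length, at a mean of 14.2 FPKM. Its libraries stood at 196, 188 and 155 CPM in normal and at 296, 264 and 294 CPM in high glucose, without overlap. The log2 change was 0.66 (SE 0.124; edgeR adjusted p = 0.0138). Leaving out high glucose 1 or 3 gave adjusted p of 0.0614 or 0.0638, with a log2 change of 0.64 each time. LAMA5, the alpha chain of mature epithelial basement membranes, in a locus with MIR4758, was at 161, 168 and 143 CPM and at 182, 178 and 193 CPM. Its groups did not overlap either, yet the log2 change of 0.23 had an adjusted p of 0.168 in edgeR. LAMA1 and LAMA2, the alpha chains of early embryonic and of muscle laminins, were scarce, at means of 0.0691 and 0.171 FPKM. LAMA1 was at 2.67, 1.27 and 1.44 CPM in normal and 1.03, 0.661 and 1.15 CPM in high glucose (log2 change -0.92, SE 0.381; edgeR adjusted p = 0.137). LAMA2 differed by 0.21 on the log2 scale (edgeR adjusted p = 0.608), and by -0.03 when high glucose 1 was left out.

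LAMB2 (chr3:49121114-49133056, minus strand) had the highest level per length of all laminin chains, at a mean of 81.8 FPKM. Its values were 891, 915 and 683 CPM in normal and 527, 554 and 588 CPM in high glucose. Normal glucose 3 was the lowest of its group and still above every high glucose library. The log2 change was -0.58 (SE 0.136; edgeR adjusted p = 0.0279), and this call was lost in 5 of the 6 omissions. Leaving out normal glucose 1 or 2 gave adjusted p of 0.0795 or 0.0737, and leaving out high glucose 1, 2 or 3 gave 0.109, 0.106 or 0.0845, with log2 changes from -0.62 to -0.50. Leaving out normal glucose 3 gave -0.70 with an adjusted p of 0.00163. LAMB1, the beta chain of the most widespread laminins, was at 323, 282 and 285 CPM and at 320.5, 322 and 332 CPM, with overlapping groups (log2 change 0.13; edgeR adjusted p = 0.410). LAMC1 (chr1:183023420-183145592, plus strand), the gamma chain of nearly all laminins, was at 438, 408 and 454 CPM and at 497, 509 and 514 CPM. These groups did not overlap, but the log2 change was only 0.22 (SE 0.0931; edgeR adjusted p = 0.136), and it passed without normal glucose 3 alone (0.26, adjusted p = 0.0335). LAMC3, a gamma chain of retina and brain, had 0 counts in all 6 libraries, which allows up to 12 counts, or 0.135 to 0.146 CPM, counting error only.

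Within the beta chains, the share of FPKM held by LAMB3 was 5.26%, 5.03% and 6.69% in the normal and 15.1%, 14.2% and 13.6% in the high glucose libraries. That of LAMB2 was 73.5%, 76.3% and 70.1% against 57.2%, 58.7% and 59.6%. LAMB2 remained the main beta chain in every library. Among alpha chains, LAMA4 held 43.8%, 43.4% and 42.7% of FPKM in normal and 51.1%, 47.8% and 49.2% in high glucose, and the share of LAMA3 overlapped between groups, at 19.5% to 21.8% and 18.8% to 21.7%.

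**Figure D2:**
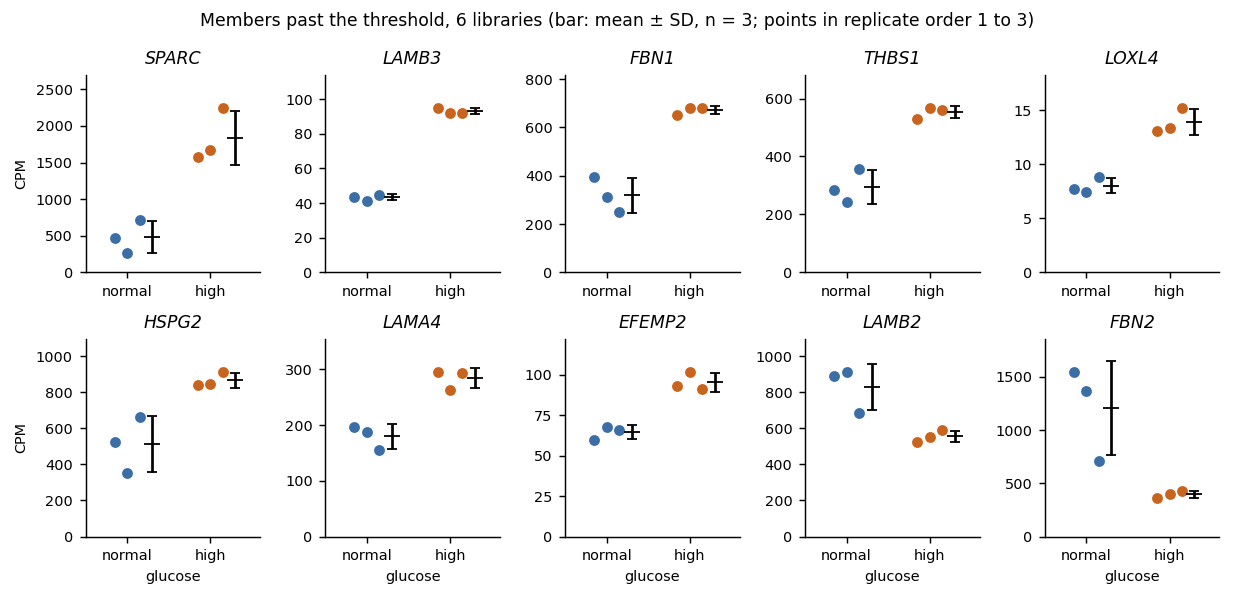
CPM (y axis) in each normal and high glucose library (x axis) for the 10 genes past the threshold, points in replicate order with mean and SD beside them. No group overlaps another, and normal glucose libraries differ more among themselves than high glucose ones by SD for 6 of the 10, the exceptions being SPARC, LAMB3, LOXL4 and EFEMP2.

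Among the linkers of the basement membrane, HSPG2, or perlecan, a large heparan sulfate proteoglycan, rose, and the nidogens and agrin did not pass the threshold. HSPG2 (chr1:21822244-21937310, minus strand) was at 525, 351 and 661 CPM in normal and at 839, 847 and 914 CPM in high glucose. Its normal glucose libraries were scattered and its high glucose libraries close together, with no overlap. The log2 change was 0.76 (SE 0.217) and the edgeR adjusted p, 0.0498, lay at the threshold. Leaving out normal glucose 1 or 2 gave 0.117 or 0.0526, and leaving out high glucose 1, 2 or 3 gave 0.12, 0.13 or 0.143, with log2 changes from 0.55 to 0.78. Leaving out normal glucose 3 gave 0.98 with an adjusted p of 0.0089. AGRN (chr1:1020120-1056116, plus strand, in a locus with AL645608), the proteoglycan that clusters receptors at nerve-muscle contacts, was the most abundant of the 4 per length, at a mean of 77.2 FPKM. It was at 1236.5, 1097 and 1041.5 CPM in normal and 906, 893 and 965 CPM in high glucose. These groups did not overlap, and the log2 change of -0.29 (SE 0.106) had an edgeR adjusted p of 0.101, or of 0.0227 without normal glucose 3 (-0.34). NID1 and NID2, which bridge laminin and type IV collagen, differed by -0.17 and -0.38 on the log2 scale (edgeR adjusted p = 0.537 and 0.305). NID2 was at 33.6, 36.4 and 18.9 CPM in normal glucose and at 22.9, 22.0 and 23.2 CPM in high glucose. Normal glucose 3 was thus below every high glucose library, and without it the log2 change was -0.62 (adjusted p = 0.00605).

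The fibrillins moved in opposite directions. FBN1, the main fibrillin of adult microfibrils, rose, and FBN2, the fibrillin that dominates in development, fell, so that the more abundant of the pair per length changed from FBN2 to FBN1. FBN1 (chr15:48408313-48645709, minus strand) was at 395, 311 and 252 CPM in normal and at 652, 679 and 682 CPM in high glucose, with no overlap. The log2 change was 1.07 (SE 0.167; edgeR adjusted p = 0.00818), and it ranged from 0.93 to 1.25 with adjusted p of at most 0.0427 over the omissions. FBN2 (chr5:128257909-128659185, minus strand) was at 1547, 1364 and 712 CPM in normal and at 364, 401 and 425 CPM in high glucose. Normal glucose 3 had less than the other libraries of its group but more than all of high glucose. The log2 change was -1.61 (SE 0.274; edgeR adjusted p = 0.0107), and leaving out high glucose 1 or 2 gave adjusted p of 0.0521 or 0.0533. The deposited loci of FBN2, FBN1 and SPARC reach beyond the RefSeq starts whose promoters are shown above, so those windows lie within the loci.

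Per length, FBN2 stood at 4.81, 5.38 and 3.47 times FBN1 in the normal and at 0.686, 0.724 and 0.764 times FBN1 in the high glucose libraries. FBN1 thus made up 17.2%, 15.7% and 22.3% of fibrillin FPKM in normal glucose and 59.3%, 57.995% and 56.7% in high glucose. The split holds in all 6 libraries, normal glucose 3 included. A ratio within a library is free of the scaling between libraries. It was not tested, since the genes were chosen with their changes known. The proteins that bind microfibrils were scarce. MFAP2, EMILIN1 and MFAP5 had means of 0.118, 0.278 and 0.197 FPKM, and none passed the threshold. MFAP5 was at 2.26, 0.128 and 0.289 CPM in normal and 1.23, 0.912 and 0.947 CPM in high glucose (log2 change 0.20; edgeR adjusted p = 0.901). Its change was 2.30 (adjusted p = 0.0397) without normal glucose 1 and -0.31 and -0.21 without normal glucose 2 and 3. EMILIN1 differed by 0.21 on the log2 scale (edgeR adjusted p = 0.735), and by -0.13 when high glucose 2 was left out. MFAP2 differed by -0.03 (edgeR adjusted p = 0.987), with no stable sign over settings.

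**Figure D3:**
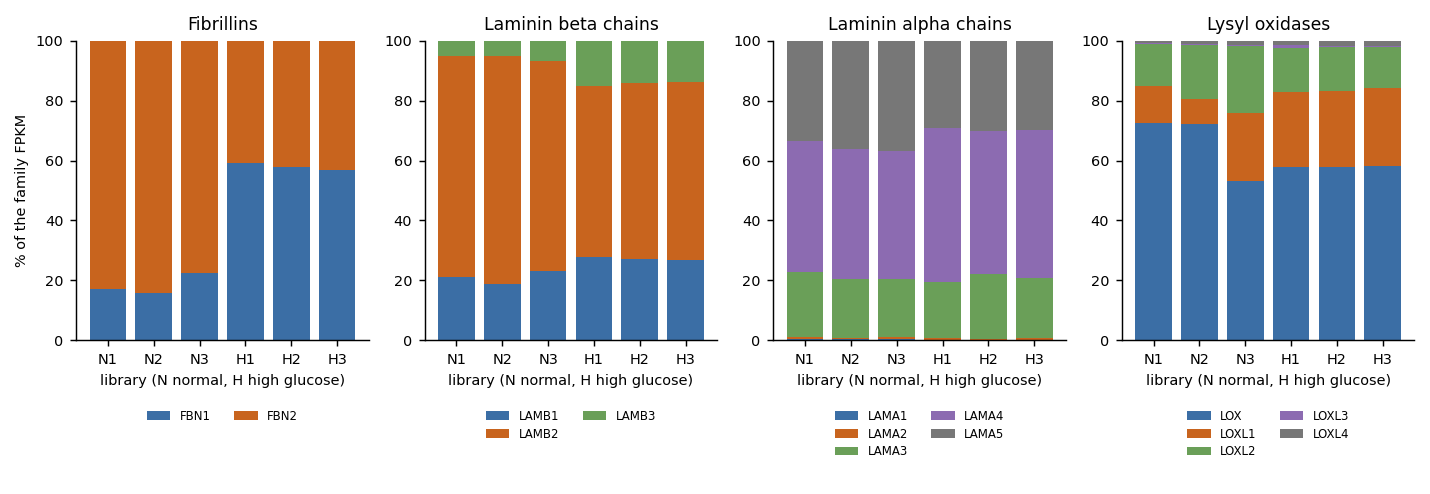
Share of the summed FPKM (y axis, %) of fibrillins, laminin beta chains, laminin alpha chains and lysyl oxidases held by each gene in each library (x axis; N normal, H high glucose, replicates 1 to 3). FBN1 holds 15.7% to 22.3% of fibrillin FPKM in normal and 56.7% to 59.3% in high glucose.

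Elastin itself was almost absent and 1 fibulin rose. ELN, the core of the elastic fibre, had 65, 0 and 13 counts in normal and 15, 17 and 16 counts in high glucose, or 0.751, 0, 0.156, 0.168, 0.194 and 0.194 CPM. EFEMP2 (chr11:65866441-65872869, minus strand), or fibulin-4, which brings lysyl oxidase to tropoelastin, was at 59.6, 68.0 and 65.8 CPM in normal and 93.1, 102 and 91.0 CPM in high glucose. Its groups did not overlap and the log2 change was 0.57 (SE 0.105; edgeR adjusted p = 0.0138). Leaving out high glucose 1, 2 or 3 gave adjusted p of 0.0576, 0.0705 or 0.0552, with log2 changes of 0.59, 0.52 or 0.60. EFEMP1 (chr2:55865967-55924139, minus strand), or fibulin-3, mutated in a dominant drusen disease of the retina, was the most abundant fibulin per length, at a mean of 40.5 FPKM. It was at 195, 129 and 173 CPM in normal and at 224, 247 and 214 CPM in high glucose. Those groups did not overlap either, but the log2 change of 0.46 (SE 0.163) had an edgeR adjusted p of 0.0910. FBLN1, FBLN2 and FBLN5, the fibulins of basement membranes and elastic fibres, differed by -0.66, 0.28 and 0.04 on the log2 scale (edgeR adjusted p = 0.135, 0.276 and 0.913). FBLN5 differed by -0.12 when normal glucose 3 was left out.

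Of the 5 lysyl oxidases, copper enzymes that crosslink collagen and elastin, LOXL4 passed the threshold. LOXL4 (chr10:98247690-98268194, minus strand) rose from 7.74, 7.47 and 8.83 CPM to 13.1, 13.4 and 15.2 CPM, with no overlap (log2 change 0.79, SE 0.150; edgeR adjusted p = 0.0143). Leaving out high glucose 1, 2 or 3 gave adjusted p of 0.0549, 0.0616 or 0.0702, with log2 changes of 0.84, 0.82 or 0.73. LOXL1, the form that maintains elastic fibres and is linked to exfoliation glaucoma, was at 112, 66.2 and 154 CPM in normal and at 217, 205 and 215 CPM in high glucose. All high glucose libraries were above all normal glucose ones, and the log2 change of 0.94 (SE 0.277) missed the threshold narrowly (edgeR adjusted p = 0.0548). It passed under several other settings and without normal glucose 3 (1.25, adjusted p = 0.00921). LOX (chr5:122063195-122078568, minus strand), the founding member, was the most abundant of the family per length, at a mean of 106 FPKM. Its values of 951, 815 and 527 CPM in normal and 723, 687 and 702 CPM in high glucose overlapped (log2 change -0.12; edgeR adjusted p = 0.727). Normal glucose 3 was the lowest and normal glucose 1 and 2 the highest of the 6, and the change was -0.33 without normal glucose 3 (adjusted p = 0.0326) and 0.07 without normal glucose 1. LOXL2, a form active on type IV collagen, in a locus that also holds ENTPD4, differed by -0.22 on the log2 scale (edgeR adjusted p = 0.211). LOXL3 was at 2.28, 3.11 and 2.68 CPM in normal and at 7.53, 3.03 and 3.40 CPM in high glucose, so that high glucose 1 stood alone (log2 change 0.79; edgeR adjusted p = 0.186). With that library left out, the change was 0.26.

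Matricellular proteins held the greatest rise of the group. SPARC (chr5:151661096-151687273, minus strand), a collagen-binding protein also called osteonectin, was at 467, 269.9 and 715 CPM in normal and at 1573, 1674 and 2253 CPM in high glucose. Both groups were wide, and the lowest high glucose library was still above the highest normal glucose one. Means were 484 ± 223 and 1833 ± 367 CPM (SD, n = 3), with a log2 change of 1.92 (SE 0.345; edgeR adjusted p = 0.0123). Over the omissions it ranged from 1.63 to 2.32, and the adjusted p was 0.0524 without high glucose 3. SPARC made up 7.71%, 5.0% and 14.0% of the FPKM summed over the 41 genes in normal and 24.2%, 25.3% and 30.9% in high glucose. It had the highest FPKM of the 41 in every high glucose library and, in normal glucose, in library 3 only.

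THBS1 (chr15:39581079-39599466, plus strand), a thrombospondin that activates latent TGF-beta and restrains vessel growth, rose. It was at 284, 244 and 357 CPM in normal and at 531, 569 and 561 CPM in high glucose, with no overlap (log2 change 0.91, SE 0.151; edgeR adjusted p = 0.00968). Its adjusted p was 0.0502 without high glucose 2, with the change at 0.89. THBS2, a related inhibitor of vessel growth, was at 11.6, 3.40 and 2.79 CPM in normal and at 2.02, 1.81 and 1.74 CPM in high glucose. Normal glucose 1 stood far above the rest, and the log2 change of -1.67 (SE 0.543) had an edgeR adjusted p of 0.0723. It was -2.01 without normal glucose 3 (adjusted p = 0.0258) and -0.74 without normal glucose 1. THBS3, TNC and POSTN, further adhesion-modulating glycoproteins, differed by 0.10, 0.28 and 0.28 on the log2 scale (edgeR adjusted p = 0.728, 0.626 and 0.557). TNC, or tenascin-C, differed by -0.02 when normal glucose 1 was left out, and THBS3 by -0.07 when normal glucose 3 was.

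**Figure D4:**
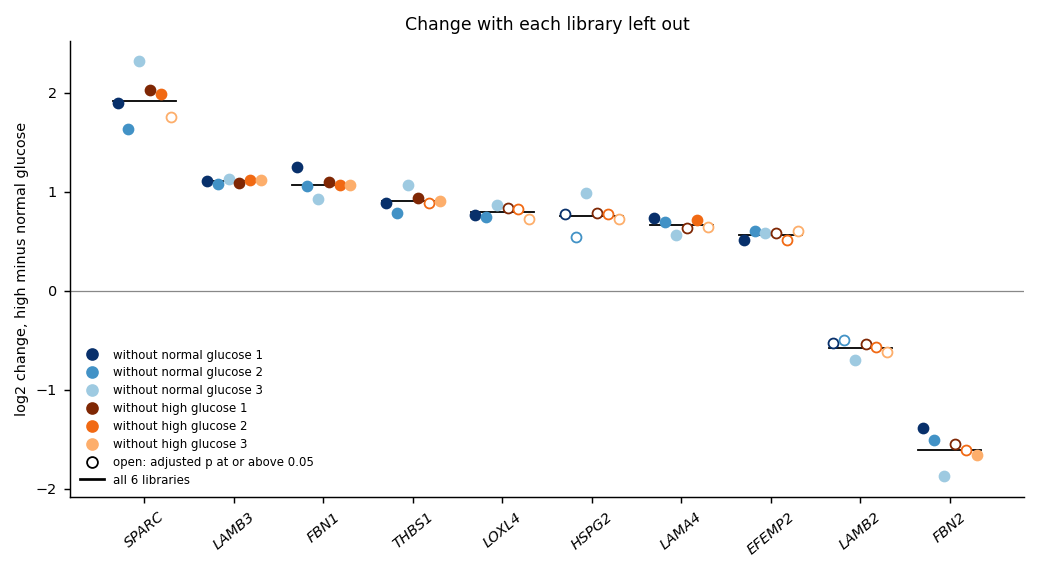
Log2 change (y axis) of the 10 called genes (x axis) with all 6 libraries (line) and with each library left out (points; open where the adjusted p was 0.05 or more). LAMB3 and FBN1 stay past the threshold in all 6 omissions, and no gene changes direction.

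With 1 library left out, both the members' counts and the background changed. With normal glucose 1 dropped, 9 genes rose and 1 fell, while 10.8% of all loci were called (5.49% higher, 5.33% lower). Dropping normal glucose 2, 7 rose and 1 fell, at 10.4% of loci (5.47% and 4.89%). Dropping normal glucose 3, 11 rose and 7 fell, at 28.7% (14.8% and 13.9%). Fewer passed when a high glucose library was dropped. The counts were 4 and 0 for library 1 (6.21% of loci; 3.12% and 3.09%), 4 and 0 for library 2 (5.39%; 2.77% and 2.62%) and 3 and 1 for library 3 (5.7%; 2.97% and 2.73%). LAMB3 and FBN1 were the genes called in all 6 omissions.

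No member of the proteoglycan and matrilin set passed the threshold. MATN2 (chr8:97868840-98036724, plus strand), a filament-forming adaptor of basement membranes, was the only abundant one, at a mean of 47.7 FPKM. It was at 549, 704 and 358 CPM in normal and at 329.8, 330.3 and 315 CPM in high glucose. The groups did not overlap, and the log2 change of -0.72 (SE 0.227) had an edgeR adjusted p of 0.0654, or of 0.00248 without normal glucose 3 (-0.95). VCAN, DCN, LUM and BGN, proteoglycans typical of fibroblasts, were all under 0.14 FPKM on average. DCN, or decorin, was at 4.25, 0.0466 and 0.180 CPM in normal and at 0.258, 0.137 and 0.231 CPM in high glucose, and LUM, or lumican, at 1.35, 0.140 and 0.0722 CPM and at 0.415, 0.387 and 0.413 CPM. BGN, or biglycan, had 125, 12 and 0 counts in normal and 17, 0 and 0 counts in high glucose. VCAN, or versican, was at 3.52, 1.03 and 0.541 CPM and at 2.03, 0.855 and 1.13 CPM.

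Normal glucose 1 was highest of all 6 libraries for each of these 4 proteoglycans and for ELN, MFAP5 and THBS2. It was more than 2 times every other library for DCN, BGN, LUM, ELN and THBS2, a criterion that LOXL3 met in high glucose 1 and no other of the 41 genes met in any library. With normal glucose 1, the log2 changes of DCN, LUM, VCAN and ELN were -2.83, -0.36, -0.34 and -0.70 (edgeR adjusted p = 0.211, 0.831, 0.767 and 0.736). Without it they were 0.87, 1.92, 0.77 and 1.24, and none passed the threshold. BGN kept a negative log2 change, at -3.01 with normal glucose 1 (edgeR adjusted p = 0.323) and -0.13 without it. Some fibroblast markers were also highest in that library. Of 13 such markers, DPT and TCF21 were under 12 counts everywhere, and of the 11 others 6 were highest in normal glucose 1. The list summed to 385, 282 and 276 CPM in normal and to 294, 352 and 340.0 CPM in high glucose. COL1A2, a chain of type I collagen, was at 28.7 CPM in normal glucose 1 and at 0.862 to 2.49 CPM elsewhere. In contrast, PDGFRB, PDPN, FAP and S100A4 were not highest in normal glucose 1. PDGFRA, a growth factor receptor, was lowest of all 6 libraries there, at 42.6 CPM against 45.1 to 48.8 CPM. Its locus also holds FIP1L1 and AC058822, so that value cannot be assigned to PDGFRA alone. The part of such cells in these values was not tested.

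**Figure D5:**
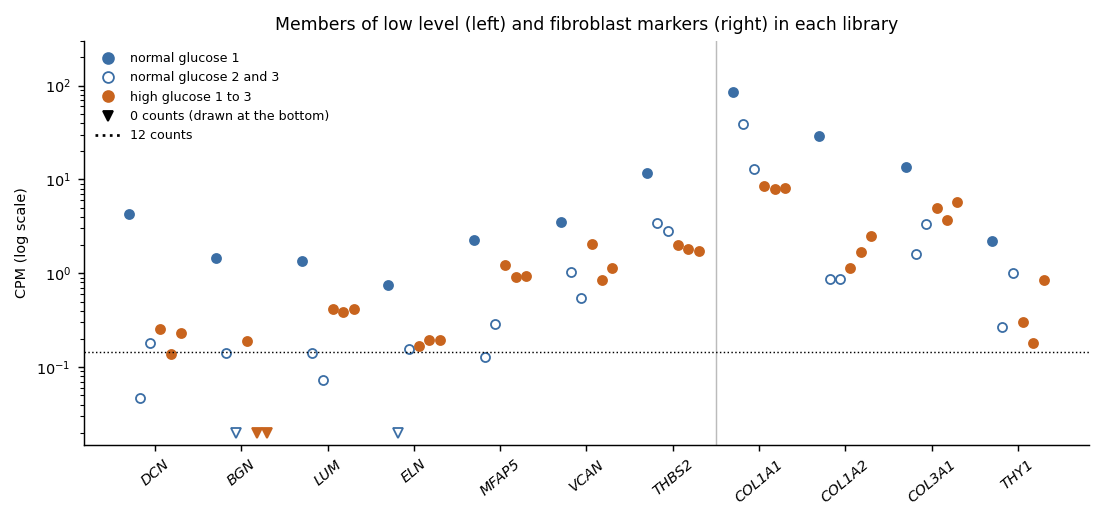
CPM (y axis, log scale) of 7 genes of low level (left) and 4 fibroblast markers (right) in each library, with libraries left to right in replicate order and a dotted line at 12 counts. Normal glucose 1 (filled blue) is the highest point for every gene shown, which follows from the choice of genes. The 4 markers come from a list of 13, in which PDGFRB, PDPN, FAP and S100A4, not drawn, were not highest in that library.

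Ordered by level, 17 genes had a mean of at least 10 FPKM, 10 had 1 to 10 FPKM and 14 were below 1 FPKM, LAMC3 included. Of the called genes, 9 were in the first band, LOXL4 in the second and none in the third. Libraries of the groups did not overlap for 14, 3 and 3 genes of these bands. That is 20 of the 40 tested genes, against 42.3% of all tested loci (21.8% above, 20.5% below) and 49.5% of those with a protein-coding transcript. The table's own annotation lists all 41 genes as extracellular region, 37 as collagen-containing matrix and 18 as calcium ion binding, a term carried by 3.69% of protein-coding loci. Of the called genes 6 carry the calcium term, and 12 of the other 31 do.

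Other genes of the same structures, in 4 lists, were called at shares on both sides of the background. Of 23 tested genes of laminin, netrin and basement membrane, 4 rose and 4 fell (34.8%), with a median log2 change of 0.08. COL4A1 and COL4A2, the main type IV collagen chains, rose by 1.45 and 0.93 (edgeR adjusted p = 0.00209 and 0.00469). Their loci overlap on chromosome 13, and without strand their reads cannot be told apart there. PAPLN, or papilin, rose by 1.49 (edgeR adjusted p = 0.00733), and COL4A4, a type IV chain of specialised membranes, fell by 1.22 (edgeR adjusted p = 0.0139). For COL4A4, leaving out high glucose 1 or 2 gave adjusted p of 0.0569 or 0.0667. Of 24 tested laminin receptors and enzymes of dystroglycan glycosylation, 3 rose and 2 fell (20.8%; median 0.23). ITGB4, which pairs with ITGA6 as the hemidesmosome receptor of laminin-332, rose from 104 ± 1.46 to 228 ± 5.42 CPM (SD, n = 3; log2 change 1.13, SE 0.0891; edgeR adjusted p = 0.00164). SDC4, a syndecan of focal adhesions, rose by 1.71 (edgeR adjusted p = 0.00165). B4GAT1, a glycosyltransferase for dystroglycan, rose by 0.53 and ITGA1, a collagen and laminin receptor chain in a locus with PELO and AC022133, fell by 0.99 (edgeR adjusted p = 0.0172 and 0.0182). Among the omissions, B4GAT1 passed only with normal glucose 3 left out. Leaving out normal glucose 1 or 2 gave adjusted p of 0.0535 or 0.0514, and leaving out high glucose 1, 2 or 3 gave 0.0726, 0.0812 or 0.0676. For ITGA1, leaving out high glucose 1 or 3 gave 0.0784 or 0.0805. ITGA6 differed by 0.50 on the log2 scale (edgeR adjusted p = 0.0621), with no overlap between groups, and passed when normal glucose 3 was left out (0.68, adjusted p = 0.00325).

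Of 25 tested genes of elastic fibres and microfibrils outside the 41, 7 rose and 3 fell (40%; median 0.21). THSD4, an ADAMTS-like protein that promotes fibrillin-1 assembly, rose from 34.7 ± 6.89 to 76.0 ± 0.893 CPM (SD, n = 3; log2 change 1.13; edgeR adjusted p = 0.00570). ITGB8, an integrin chain that activates TGF-beta, fell by 1.78 (edgeR adjusted p = 0.00844). TGFB3, a TGF-beta ligand, rose by 1.73 (edgeR adjusted p = 0.0109), or 0.0531 when high glucose 2 was left out. ATP7A, the copper pump that loads lysyl oxidases, shares its locus with PGK1, a far more abundant glycolytic gene, so its rise of 0.90 cannot be assigned to either. Of 28 tested matricellular genes and small proteoglycans, 2 rose and 3 fell (17.9%; median -0.01). VTN, a serum adhesion protein in a locus with SEBOX and AC002094, rose by 1.37. CCN3, a growth-restraining matricellular protein, fell by 1.64, and ECM2, a leucine-rich matrix protein, by 1.93. B3GLCT, which adds glucose to thrombospondin repeats, fell from 69.0 ± 8.62 to 32.5 ± 1.2 CPM (SD, n = 3; log2 change -1.08; edgeR adjusted p = 0.00367).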

How the data were processed

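RNA of 6 ARPE-19 libraries was sequenced as read pairs after Trizol extraction and oligo-dT selection, per the labels' protocols, which also speak of fractions without poly(A). The authors deposited 1 table with a whole-number count per locus, not normalized, and an FPKM value scaled to length and depth by the authors, which is 0.0001 where the count is 0, per the file headers and values. Among tools and builds, the submitters' processing notes list Bowtie (0.12.2) and mm8, a mouse build. Identifiers in the table are human, and the loci of all 41 genes overlap their GRCh38.p14 positions in RefSeq, so coordinates are printed as deposited. The counting tool and use of strand are not given in the sources used here, so reads of overlapping or antisense genes may be mixed. Counts of 4 outnumber neighbours (9555 values of 4, 4210 of 3, 2659 of 5), so 1 fragment may count about 4 times, and the floor was set at 12 counts, 3 fragments of 4.

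Loci kept by filterByExpr (25025) were tested with edgeR 4.0.16 in R 4.3.3 (TMM, glmQLFit, glmQLFTest, 2-sided, group only, Benjamini-Hochberg over all tested loci, threshold 0.05). SE was taken as the log2 change over the root of the F statistic. FPKM was used for comparing genes, and in limma 3.58.1 with pseudocounts of 1 and 0.1 as an alternative. DESeq2 1.42.0, voom, other scalings and filters, counts divided by 4, a replicate block and omission of each library were the other alternatives. Replicates of a group differed by more than sampling noise (chi-square per degree of freedom at least 20.2, on counts divided by 4). On simulated counts for 25025 loci, 20% of loci changed 2-fold and 73% of those changed 4-fold were called. The changed loci were far fewer than those called in the data and were drawn above a limit of mean count. These shares therefore need not hold for the genes described here. Genes described with every library are the called ones and the most abundant of each role, and of related lists up to 4 called genes with the smallest adjusted p. Others named with values were chosen after their values were seen. The 41 genes and all lists were chosen with earlier results of these data known.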

Additional observations from a re-analysis of the deposited data

How the results depend on the processing

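The 8 genes that rose and the 2 that fell kept their direction in all 17 alternatives. Genes that rose numbered 7 to 10 and genes that fell 1 to 4 outside the omissions of a library. DESeq2 called 4 lower (THBS2 and MATN2 added), and with RLE scaling HSPG2 was not called. With a replicate block, 7 rose and 1 fell, LAMB2 and HSPG2 being lost, and over all loci 1312 rose and 1233 fell in place of 2439 and 2467. Same-numbered libraries did not deviate together (Pearson r over loci of -0.0170, -0.00076 and -0.00942), so no pairing was assumed. Over omissions of 1 library, genes that rose ranged from 3 to 11, genes that fell from 0 to 7, and all loci called from 730 to 3932 higher and from 691 to 3683 lower. Without normal glucose 3, 11 rose and 7 fell at a background of 28.7%, and LAMA3, LAMC1, LOXL1, NID2, AGRN, LOX, THBS2 and MATN2 were added. Without each high glucose library 4 of the 10 remained.

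In the related lists, laminin receptors that rose numbered 6 with DESeq2, the filter at CPM 1, counts divided by 4 and voom, and 5 with library size only, upper-quartile scaling and limma on FPKM with either pseudocount, in place of 3. Those that fell numbered 0 with the replicate block. Matricellular genes that rose numbered 6 with DESeq2, 4 with library size only, counts divided by 4 and voom, and 1 with the replicate block, in place of 2. Basement membrane genes that fell numbered 1 with limma on FPKM and 2 with the replicate block, in place of 4. Over omissions, receptors that rose ranged from 2 to 8 and those that fell from 0 to 2. Elastic fibre genes ranged from 2 to 9 and from 1 to 4, basement membrane genes from 3 to 5 and from 0 to 4, and matricellular genes that rose from 1 to 3, with 3 that fell each time. The cause of these shifts was not tested, beyond the smaller number of libraries in each omission. None of the 13 tested members under 1 FPKM was called with all libraries, but MFAP5 was called without normal glucose 1 and THBS2 in DESeq2 and without normal glucose 3.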
